A study of Rattus norvegicus with 40 samples.

Results

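Failing and adapted right ventricles were compared across the transcriptome in rats exposed to the same 4 weeks of hypoxia, with and without the compound SU5416. The members were the arrays whose titles name untreated SuHx right ventricles or hypoxia right ventricles: 24 of the 40 arrays of the series, from 12 of its 24 animals, 6 animals a side. All animals were male Sprague-Dawley rats, a wild-type outbred strain. SuHx animals were injected once under the skin with SU5416 at 20 mg/kg, which blocks the receptors for vascular endothelial growth factor. They then breathed 10% oxygen, a simulated altitude of 5000 m, for 4 weeks, and spent another 2 weeks at sea level. Hypoxia animals breathed 10% oxygen for 4 weeks and were taken without the injection and without the sea-level weeks. Normal animals were untreated, and their mean ± SD stands beside some of the values. The SU5416, the return to room air and the time on study therefore differ together between the SuHx and hypoxia groups, and their shares in any difference cannot be told apart. An injection of vehicle alone was not analysed here. The statistical fit and the filter on missing values also used 6 SuHx animals given carvedilol at 15 mg/kg daily. They had the same SU5416 and hypoxia, then 4 weeks of carvedilol at room air, and are not compared here.

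The right ventricle pumps blood through the lung, and a rise in pulmonary vascular resistance loads it. Under hypoxia alone the ventricle of the rat thickens and keeps its function, and is used in this field as a model of adaptation. Blocking the receptors for vascular endothelial growth factor under hypoxia leaves obliterated lung arteries, and the ventricle dilates, scars and fails. Loaded heart muscle is known to switch on natriuretic peptide genes, to lay down matrix, to lose capillaries and to alter the genes of contraction, excitation and fuel use. SU5416 is also known to activate the aryl hydrocarbon receptor, a transcription factor that switches on cytochrome P450 genes.

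Each value is a log2 ratio of the RNA of an animal over a reference RNA pooled from 14 rat cell lines. A gene near 0 was as abundant in the ventricle as in the reference, and ratios of different genes are not comparable as levels. The arrays of an animal were averaged before any test, so n counts animals. Changes are differences of mean log2 ratio, SuHx minus hypoxia, with the standard error (SE) of the limma fit. A gene was called when its Benjamini-Hochberg adjusted p over all 9775 tested genes was under 0.05, and "rose" or "fell" is used of called genes only. A gene that rose was higher in SuHx than in hypoxia animals, and was not always above normal animals. Likewise, a gene that fell was not always below normal animals. The labels give separate animals, with no word on shared cages or litters.

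Of the 24 arrays, 2 stood apart. They were the first arrays of hypoxia animals 3 and 4, with 19264 and 20120 spots with a value, and they correlated with the other arrays at a median r of 0.512 and 0.474, against 0.731 to 0.925 for every other array of the series (5738 spots with a value on all arrays). Both animals also had other arrays, so that all 6 hypoxia animals remained when these 2 were left out. SuHx animals had 28142 spots with a value (SD 836), against 26035 (SD 2090) in hypoxia animals (two-sided exact permutation test, p = 0.0368, n = 6 each), and 27324 (SD 1000) in hypoxia animals without the 2 arrays (exact permutation p = 0.154). The log ratios of an array spread with an SD of 1.88 in SuHx animals, against 2.07 in hypoxia animals (exact permutation p = 0.00216, the smallest this design allows), and 1.99 in hypoxia animals without the 2 arrays (exact permutation p = 0.013). The part of these differences in the gene results was not tested, beyond the refits given beside them. Genes named below with a change were called without the 2 arrays too, and in every fit without 1 of the 12 animals that kept the gene, except where stated. A gene with values in only 4 SuHx or 4 hypoxia animals was dropped when 1 of those 4 was left out. For such a gene these fits could not show how far the change rests on any 1 of those 4. Where another setting ended a call and also moved the change by over 1.5 times, the value under at least 1 such setting stands beside the gene. A looser filter asked for values in 2 of 6 animals of every group, and another for values in 4 of 6 SuHx and 4 of 6 hypoxia animals only. Filters act on probes, so that a gene can gain probes under these, and its change can move with them.

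**Figure D1:**
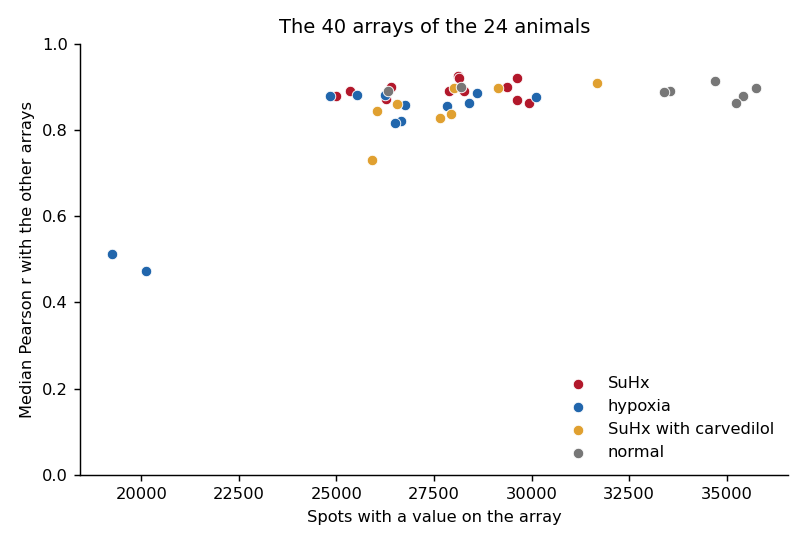
Number of spots with a value on each of the 40 arrays (horizontal axis) against the median Pearson correlation of the array with all others (vertical axis), coloured by group, in the order SuHx, hypoxia, SuHx with carvedilol and normal. The 2 hypoxia arrays with 19264 and 20120 spots lie at correlations of 0.512 and 0.474, below all other arrays.

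More genes were higher than lower in the failing ventricle. Of 9775 genes, 1099 (11.2%) were called, 925 of them higher in SuHx (9.46%) and 174 lower (1.78%). The counts of list members below that rose or fell are to be read against these shares of all tested genes. All 6 SuHx animals lay above all 6 hypoxia animals, or those with a value, in 573 genes (5.86%), and below them in 127 (1.30%). The median change of all genes was 0.26, and 0.19 without the 2 arrays, so that small rises are to be read against it. Higher genes made up 84.2% of the calls, but 74.5% without the 2 arrays (848 higher, 8.86%, and 290 lower, 3.03%), 75.7% after quantile normalisation and 67% with both. Fitted on the SuHx and hypoxia animals alone, 578 genes were called. The spread of each gene then rests on 12 animals, and the reason for the lower count was not tested. The main fit takes 1 spread per gene for all 4 groups, so its SEs and adjusted p-values assume equal spread. Some genes spread unequally. Fgfr1 had an SD of 1.74 in hypoxia, 0.51 in SuHx and 0.32 in normal animals. Thbs4 spread most in SuHx animals, with an SD of 1.65 against 1.09 in hypoxia and 0.71 in normal animals. Set against normal animals, which both comparisons share, the median change of all genes was -0.12 in SuHx and -0.38 in hypoxia animals.

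**Figure D2:**
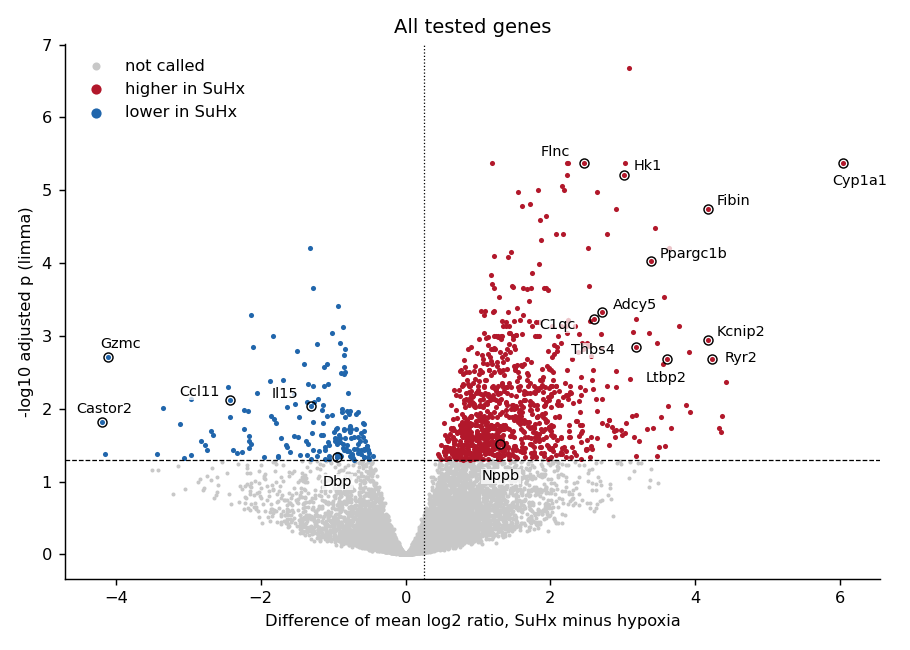
Difference of mean log2 ratio between 6 SuHx and 6 hypoxia animals (horizontal axis) against -log10 of the limma adjusted p (vertical axis) for 9775 genes, with called genes in colour. The dashed line is the adjusted p of 0.05 and the dotted line the median change of 0.26. Cyp1a1 lies farthest to the right, at 6.04, and Castor2, Olig2 and Gzmc farthest to the left, at -4.20, -4.16 and -4.12.

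Promoter sequences are shown for 5 genes that rose and are described below, because they belong to the gene groups on which the comparison turns: an enzyme gene of the aryl hydrocarbon receptor pathway, glycolytic and hypoxia-inducible genes, a matrix signal and a natriuretic peptide. Each runs from 250 bases before to 50 bases after the annotated start, 5′ to 3′ on the strand of the gene, from RefSeq on build GRCr8. Capitals mark GCGTG, the core of the element that the aryl hydrocarbon receptor is known to bind, in Cyp1b1. They mark ACGTG, the core of the element of hypoxia-inducible factors, in Ldha and Ddit4, and CATTCC, the M-CAT element bound by TEAD factors in muscle, in Ccn2 and Nppb. Both strands were searched.
Cyp1b1 (chr6:21094315-21094614, plus strand): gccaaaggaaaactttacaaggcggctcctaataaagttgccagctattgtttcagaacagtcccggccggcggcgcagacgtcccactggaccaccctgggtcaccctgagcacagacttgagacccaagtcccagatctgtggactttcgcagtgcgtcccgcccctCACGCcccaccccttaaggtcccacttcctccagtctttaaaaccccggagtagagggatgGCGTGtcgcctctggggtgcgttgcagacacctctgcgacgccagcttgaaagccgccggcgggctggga
Ldha (chr1:106507842-106508141, plus strand): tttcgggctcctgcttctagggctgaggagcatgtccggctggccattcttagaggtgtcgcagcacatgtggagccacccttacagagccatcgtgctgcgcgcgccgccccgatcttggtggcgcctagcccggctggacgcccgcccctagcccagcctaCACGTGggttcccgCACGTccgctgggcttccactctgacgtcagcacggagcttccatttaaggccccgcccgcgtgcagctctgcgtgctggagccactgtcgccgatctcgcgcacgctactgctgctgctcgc
Ddit4 (chr20:28436988-28437287, minus strand): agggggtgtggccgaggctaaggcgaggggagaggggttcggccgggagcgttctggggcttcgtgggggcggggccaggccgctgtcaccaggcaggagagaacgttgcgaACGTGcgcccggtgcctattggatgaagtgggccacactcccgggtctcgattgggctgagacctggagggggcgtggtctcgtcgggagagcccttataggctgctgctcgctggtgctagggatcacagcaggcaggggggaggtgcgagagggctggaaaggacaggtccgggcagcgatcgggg
Ccn2 (chr1:22624565-22624864, minus strand): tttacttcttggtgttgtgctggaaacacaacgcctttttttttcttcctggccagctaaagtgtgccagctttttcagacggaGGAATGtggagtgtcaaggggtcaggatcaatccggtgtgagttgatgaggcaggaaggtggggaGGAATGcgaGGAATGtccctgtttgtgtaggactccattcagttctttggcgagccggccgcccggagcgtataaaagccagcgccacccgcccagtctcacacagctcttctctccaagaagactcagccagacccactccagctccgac
Nppb (chr5:163699758-163700057, plus strand): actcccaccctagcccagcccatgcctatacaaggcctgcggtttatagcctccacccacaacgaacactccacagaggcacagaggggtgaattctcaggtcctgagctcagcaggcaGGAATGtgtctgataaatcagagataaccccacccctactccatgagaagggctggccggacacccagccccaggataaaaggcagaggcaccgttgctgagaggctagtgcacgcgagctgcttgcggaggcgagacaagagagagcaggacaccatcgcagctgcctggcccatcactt
Cyp1b1 held 2 matches, Ldha 3 of which a pair overlap on opposite strands, Ddit4 1, Ccn2 3 and Nppb 1. Of all 33469 promoters in the table, 29.7% held GCGTG, 19.3% ACGTG and 14.2% CATTCC. Among the promoters of genes that rose, these shares were 50.5%, 26.5% and 11.7% of 762, against 48.3%, 25.9% and 11.9% of the 8093 tested genes with a promoter. A match describes the letters and is not evidence of binding.

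The largest rise of any gene belonged to Cyp1a1, the cytochrome P450 enzyme that is the classical target of the aryl hydrocarbon receptor. Its log2 ratio was 5.00 to 7.62 (median 6.08) in SuHx animals, against -0.69 to 0.93 (median 0.18) in hypoxia animals and -1.98 ± 0.72 in normal animals. No SuHx animal came within 4 log2 units of a hypoxia animal. The change was 6.04 ± 0.62, a 66-fold difference (limma adjusted p = 4.27e-06). Cyp1b1, a second P450 enzyme under the same receptor, whose promoter is printed above, rose by 2.37 ± 0.61 (adjusted p = 0.0145). It was -2.42 to 2.25 (median 0.89) in SuHx animals, against -3.31 to -0.52 (median -1.66) in hypoxia animals, and the overlap came from SuHx animal 2 alone, at -2.42. These were the 2 called genes of 5 tested members of the pathway list, and the other 3 were not called.

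The stress genes of loaded heart muscle rose in part. Of 22 tested natriuretic, stress and fetal genes, 6 rose (27.3%) and none fell, with a median change of 0.68, and 7 rose without the 2 arrays. Fhl1, a sarcomeric stretch sensor, was 1.05 to 2.48 (median 1.69) in SuHx animals, against -0.35 to 0.67 (median 0.24) in hypoxia and 0.39 ± 0.55 in normal animals, a change of 1.49 ± 0.26 (adjusted p = 0.001). The 2 loaded groups did not overlap. Hspb8, a small heat shock protein that clears damaged sarcomere proteins, was 2.03 to 2.53 (median 2.25) in SuHx animals, against 0.66 to 1.44 (median 1.0) in hypoxia animals (change 1.27 ± 0.25, adjusted p = 0.00227), but its change was 0.29 with the 2-of-6 filter (adjusted p = 0.712). Rcan1, a calcineurin regulator that calcineurin itself induces, rose by 1.15 ± 0.23 (adjusted p = 0.00296), and Enah, an actin regulator of intercalated discs, by 1.08 ± 0.23 (adjusted p = 0.00488). In Rcan1 the groups overlapped through hypoxia animal 3, and in Enah through SuHx animal 3.

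The natriuretic peptides parted. Nppb, which codes for B-type natriuretic peptide, was 3.47 to 5.58 (median 3.90) in SuHx animals, against 2.06 to 3.98 (median 2.63) in hypoxia and 1.30 ± 0.83 in normal animals. Its rise of 1.30 ± 0.38 was called (adjusted p = 0.0307), but only in 6 of the 12 fits without 1 animal, where it ran from 0.59 to 1.55. The call also ended under most other settings. Among them were quantile normalisation (1.13, adjusted p = 0.0666), the probe with the most values (0.87, adjusted p = 0.155), first arrays (0.9, adjusted p = 0.159) and the fit of only the SuHx and hypoxia animals (adjusted p = 0.08). SuHx animal 6 stood at 5.58 and the other 5 between 3.47 and 3.94. Nppa, the A-type peptide, was 2.87 to 4.76 (median 3.93) in SuHx animals, against 2.79 to 5.02 (median 3.61) in hypoxia animals, a difference of 0.09 ± 0.41 (adjusted p = 0.922). Nppa did not separate the groups, and no test of Nppa against Nppb was made. Myh7 (difference 0.54 ± 0.43), Acta1 (0.65 ± 0.30) and Ankrd1 (0.09 ± 0.21), other genes of the fetal programme, were not called, nor was Myh6 (-0.40 ± 0.67), the fast myosin of the adult rat. The probes of Ankrd1 and those of Myh6 differed in sign, and Myh6 was 0.52 in SuHx animal 4, against 4.48 to 5.29 in the other SuHx animals. Gdf15, a stress-induced cytokine, rose by 1.03 ± 0.31 (adjusted p = 0.0351), was called in 6 of the 12 fits without 1 animal and was 2.02 with first arrays (adjusted p = 0.171).

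Sarcomere genes gave calls at the Z-disc and the thick filament. Flnc, which codes for filamin C and anchors actin at the Z-disc, was 1.23 to 1.62 (median 1.47) in SuHx animals, against -1.55 to -0.44 (median -1.0) in hypoxia and 0.69 ± 0.48 in normal animals. The change of 2.46 ± 0.25 had an adjusted p of 4.27e-06 in the limma fit, with no overlap. Pdlim5, a Z-disc adaptor, was 1.5 to 3.74 (median 2.66) in SuHx animals, against -0.66 to 1.70 (median 0.57) in hypoxia animals (change 1.95 ± 0.5, adjusted p = 0.0147). In Pdlim5 the groups overlapped, through hypoxia animal 5 at 1.70. Of 16 members of the thick filament, titin and Z-disc list, 4 rose (25%) and none fell. The other calls were Myom2, an M-band protein (1.60 ± 0.46), and Mybpc3, a myosin-binding protein (0.85 ± 0.28). Myom2 was called in 3 of the 12 fits without 1 animal, where it ran from 0.36 to 1.88, and was 0.49 with the probe with the most values (adjusted p = 0.404). Mybpc3 was called in 6 of these and not without the 2 arrays (0.46, adjusted p = 0.163) or after quantile normalisation (0.51, adjusted p = 0.2). None of 11 thin filament genes was called by limma (2 at an unadjusted p under 0.05), with a median change of 0.17, while 2 rose and 1 fell without the 2 arrays.

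Among the genes of calcium release, 2 rose. Ryr2, the calcium release channel of the sarcoplasmic reticulum, was 4.09 to 6.86 (median 5.19) in SuHx animals, against 1.81, 3.26, -1.14 and 0.33 in 4 hypoxia animals, and 5.40 ± 0.64 in normal animals. The change of 4.24 ± 0.80 (adjusted p = 0.00205) rests on these 4 hypoxia animals and could not be tested without the 2 arrays. Jph2, junctophilin 2, which holds that membrane against the T-tubule, was 1.83 to 3.17 (median 2.52) in SuHx animals, against 0.43, -0.63, 0.85, 1.08 and -0.12 in 5 hypoxia animals, with normal animals at 2.42 ± 1.18 (change 2.25 ± 0.52, adjusted p = 0.00735). These were the calls among 17 calcium genes (11.8%), a share near the 9.46% of all genes. Atp2a2, the calcium pump of the sarcoplasmic reticulum, was 1.10 to 1.78 (median 1.59) in SuHx animals, against 1.17 to 1.56 (median 1.32) in hypoxia animals, a difference of 0.17 ± 0.17 (adjusted p = 0.573), and its inhibitor Pln differed by 0.47 ± 0.38 (adjusted p = 0.464).

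Of 10 tested ion channels and connexins, 4 rose, also without the 2 arrays. Kcnj12, the Kir2.2 potassium channel that sets the resting potential, was 5.00 to 5.99 (median 5.36) in SuHx animals, against 2.39 to 4.31 (median 3.63) in hypoxia and 4.55 ± 0.34 in normal animals (change 1.85 ± 0.26, adjusted p = 0.000104). Hcn2, a pacemaker channel, was 1.05 to 2.82 (median 1.66) in SuHx animals, against -1.31 to -0.23 (median -0.87) in hypoxia animals (change 2.55 ± 0.42, adjusted p = 0.000632). Neither gene had a SuHx animal within the hypoxia range. Kcnip2, the subunit of the transient outward potassium current, was 4.50, 7.88, 7.94 and 5.38 in 4 SuHx animals, against 2.85, 2.26, 2.24, 3.45 and 0.45 in 5 hypoxia animals (change 4.18 ± 0.72, adjusted p = 0.00112). Gja5, connexin 40, rose by 0.79 ± 0.26 (adjusted p = 0.0494) and was called in 4 of the 12 fits without 1 animal.

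Of 19 tested genes of beta-adrenergic and cAMP signalling 4 rose (21.1%) and none fell, with a median change of 0.79, and 3 of 18 rose without the 2 arrays. Adcy5, a main adenylyl cyclase of heart muscle, was 6.55 to 9.04 (median 7.55) in SuHx animals, against 3.43 to 6.47 (median 5.00) in hypoxia and 5.64 ± 0.30 in normal animals (change 2.71 ± 0.44, adjusted p = 0.000473). The highest hypoxia animal, at 6.47, lay just under the lowest SuHx animal, at 6.55. Adrb1, the beta1-adrenergic receptor, was 2.02 to 4.44 (median 3.06) in SuHx animals, against -0.14 to 1.88 (median 1.49) in hypoxia and 2.80 ± 0.24 in normal animals (change 1.93 ± 0.42, adjusted p = 0.005), and the loaded groups did not overlap. Prkar1a, the regulatory subunit of protein kinase A, rose by 1.09 ± 0.23 (adjusted p = 0.00406). Akap6, which tethers that kinase at the nucleus, rose by 2.28 ± 0.73 but was called in 2 of the 12 fits without 1 animal and not without the 2 arrays (1.96, adjusted p = 0.0866).

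Some glycolytic enzymes rose and most were not called. Of 29 tested enzymes and lactate carriers, 9 rose (31.0%) and none fell, with a median change of 0.65, and 8 rose without the 2 arrays. Hk1, hexokinase 1, which traps glucose in the cell, was 1.23 to 1.79 (median 1.51) in SuHx animals, against -3.31 to -0.33 (median -1.32) in hypoxia and 0.95 ± 0.38 in normal animals. Every SuHx animal lay over 1 log2 unit above every hypoxia animal, and the change of 3.02 ± 0.33 was 8.13-fold (adjusted p = 6.17e-06). Aldoa, aldolase A, was -0.16 to 0.72 (median 0.58) in SuHx animals, against -1.70 to -0.95 (median -1.16) in hypoxia animals (change 1.63 ± 0.27, adjusted p = 0.000519). Aldoa was 0.39 ± 0.45 in normal animals. A probe for its near-identical copy Aldoart2 gave 1.86, and the arrays may not separate the pair. Ldha, lactate dehydrogenase A, was -1.09 to -0.43 (median -1.02) in SuHx animals, against -2.33 to -1.62 (median -2.03) in hypoxia and -1.19 ± 0.49 in normal animals (change 1.13 ± 0.27, adjusted p = 0.00871). Pgam1, phosphoglycerate mutase, was -1.65 to -0.23 (median -0.60) in SuHx animals, against -2.57 to -1.70 (median -2.08) in hypoxia animals (change 1.35 ± 0.28, adjusted p = 0.00342). Gpi, Pfkp, Pygm and Eno1 rose by 0.80 to 1.49, and Eno1 was 0.48 with the probe with the most values (adjusted p = 0.221). Pgk1 rose by 0.80 ± 0.24 and was called in 6 of the 12 fits without 1 animal and not without the 2 arrays (0.69, adjusted p = 0.0686), and its change was 0.03 with either other filter (adjusted p = 0.988 and 0.986).

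**Figure D3:**
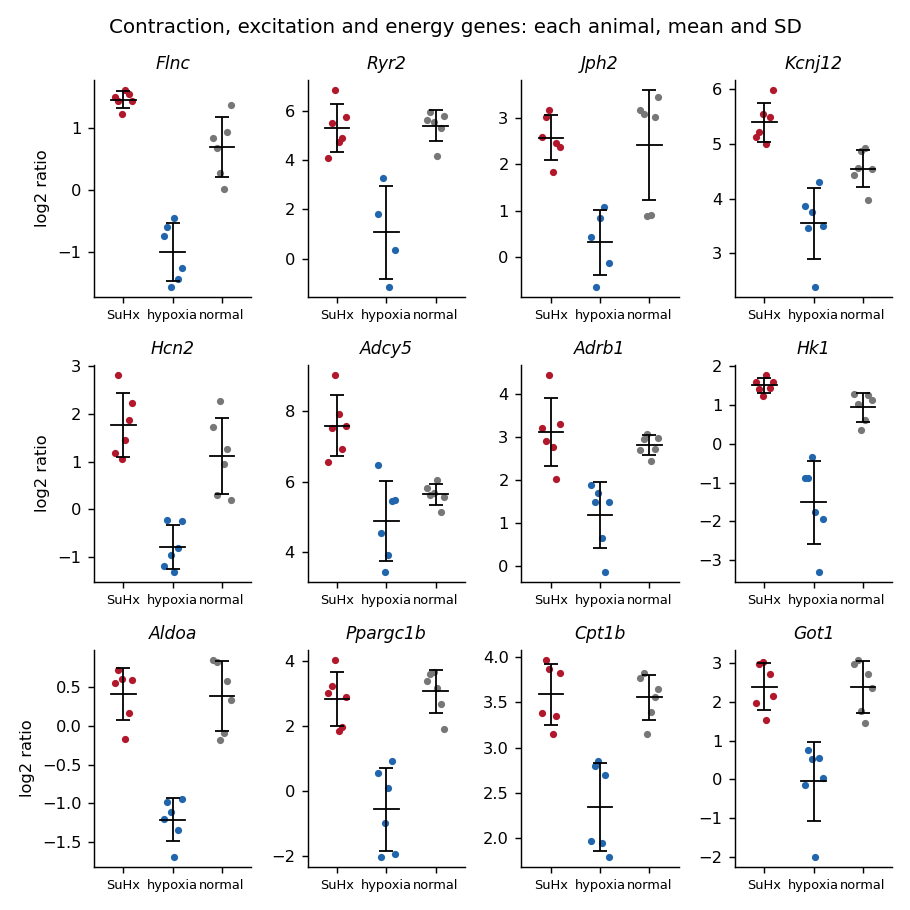
Log2 ratio over the reference RNA (vertical axes, scaled per gene) of 12 genes in each SuHx, hypoxia and normal animal, with mean and SD as black bars. In Ryr2 only 4 hypoxia animals have a value. The 12 genes were picked from those that rose, and SuHx and hypoxia animals do not overlap in any of them. SuHx animals lay above all hypoxia animals in 5.86% of all tested genes.

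The mitochondrial genes did not share 1 direction. Ppargc1b, a coactivator of the PGC-1 family that drives mitochondrial gene programmes, was 1.82 to 4.02 (median 2.94) in SuHx animals, against -2.04 to 0.92 (median -0.45) in hypoxia and 3.05 ± 0.67 in normal animals (change 3.38 ± 0.47, adjusted p = 9.49e-05). All hypoxia animals lay below all SuHx and all normal animals. Prkaa2, the muscle catalytic subunit of AMP-activated kinase, rose by 1.91 ± 0.46 (adjusted p = 0.00918). With Polg, the mitochondrial DNA polymerase (1.29 ± 0.41, called in 4 of the 12 fits without 1 animal and not without the 2 arrays, 1.20, adjusted p = 0.0597), 3 of 22 biogenesis regulators rose (13.6%), a share near the 9.46% of all tested genes, and 2 of the 3 were called without the 2 arrays. Of 31 fatty acid oxidation genes, 3 rose (9.7%, near the 9.46% of all tested genes) and 1 fell, with a median change of -0.13. Cpt1b, which carries fatty acids into mitochondria, was 3.14 to 3.97 (median 3.60) in SuHx animals, against 1.79 to 2.85 (median 2.33) in hypoxia animals (change 1.24 ± 0.22, adjusted p = 0.000999), although its 2 probes gave -0.22 and 2.71. Cpt1b was 3.56 ± 0.25 in normal animals. Ucp2, an uncoupling protein, was 1.41 to 2.32 (median 1.88) in SuHx animals, against -0.45 to 0.51 (median 0.14) in hypoxia animals (change 1.80 ± 0.30, adjusted p = 0.00064). Decr1, an enzyme for unsaturated fatty acids, fell by 1.11 (adjusted p = 0.0334), with SuHx animal 5, at 2.99, above all hypoxia animals and the other 5 at 0.62 to 1.34, and was called in 5 of the 12 fits without 1 animal. Mlycd, malonyl-CoA decarboxylase, rose by 1.21 ± 0.37 (adjusted p = 0.0349), was called in 5 of these fits and was 0.64 without the 2 arrays (adjusted p = 0.234).

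Most subunits of the respiratory chain were not called. Of 44 tested subunits, 2 rose (4.5%) and 1 fell (2.3%), with a median change of -0.09. Atp5f1a, the alpha subunit of ATP synthase, was 1.93 to 3.45 (median 2.79) in SuHx animals, against 0.80 to 1.67 (median 1.10) in hypoxia animals (change 1.60 ± 0.40, adjusted p = 0.0125). Atp5f1a was 2.75 ± 0.93 in normal animals. Ndufv1, which carries the NADH site of complex I, rose by 1.05 ± 0.27 (adjusted p = 0.015) but was not called without the 2 arrays (0.69, adjusted p = 0.074). Ndufa2, an accessory subunit of the same complex, fell by 0.85 (adjusted p = 0.0196), and by 0.46 with arrays scaled to equal spread (adjusted p = 0.163). Ndufa2 had means of 2.5 in SuHx, 3.35 in hypoxia and 2.53 in normal animals. Among 23 genes of the tricarboxylic acid cycle and its shuttles, 1 rose (4.3%) and 1 fell (4.3%), against 9.46% and 1.78% of all tested genes. Got1, the cytosolic aspartate aminotransferase of the malate-aspartate shuttle, was 1.53 to 3.02 (median 2.44) in SuHx animals, against -2.0 to 0.77 (median 0.29) in hypoxia and 2.39 ± 0.66 in normal animals (change 2.43 ± 0.44, adjusted p = 0.00126). Sdhc, a membrane anchor of succinate dehydrogenase, fell by 0.92 (adjusted p = 0.0283), was called in 7 of the 12 fits without 1 animal and was -0.61 with the probe with the most values (adjusted p = 0.0971).

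Of 28 tested genes of the hypoxia-inducible factor pathway 6 rose (21.4%) and none fell, and 5 of the 6 were called without the 2 arrays. With those arrays left out and quantile normalisation, 5 rose and 2 fell. Egln3, an oxygen-sensing prolyl hydroxylase that these factors induce, was 0.43 to 1.15 (median 0.59) in SuHx animals, against -0.61 to -0.21 (median -0.43) in hypoxia and -0.23 ± 0.39 in normal animals (change 1.10 ± 0.25, adjusted p = 0.00603). Ddit4, an inhibitor of mTOR signalling, was -0.97 to -0.34 (median -0.70) in SuHx animals, against -1.77, -1.67, -2.46 and -4.75 in 4 hypoxia animals (change 2.01 ± 0.45, adjusted p = 0.00658). Neither gene overlapped between the groups. Egln2, another prolyl hydroxylase, rose by 1.01 ± 0.24 (adjusted p = 0.00913). Ldha and Pgk1 are described above, and Loxl2, a collagen cross-linking enzyme, rose by 1.11 ± 0.30 and lost its call without SuHx animal 1 or 6, where the changes over all 12 fits ran from 0.98 to 1.29.

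Several vessel genes rose. Of 24 angiogenic ligands and receptors 5 rose (20.8%, against 9.46% of all tested genes), and 6 without the 2 arrays. Aplnr, the apelin receptor, was 0.56 to 2.36 (median 1.71) in SuHx animals, against -3.08 to 0.23 (median -0.05) in hypoxia and 2.21 ± 0.43 in normal animals (change 2.10 ± 0.49, adjusted p = 0.00775). Angpt2, a ligand that destabilises vessels, rose by 1.77 ± 0.47 (adjusted p = 0.0184), and by 1.03 without the 2 arrays (adjusted p = 0.021), of which 1 belongs to the outlying hypoxia animal 3, at -2.18. With the 2-of-6 filter it was 1.15 (adjusted p = 0.0662). Vegfb rose by 1.11 ± 0.23 (adjusted p = 0.00406), and Fgfr1, a fibroblast growth factor receptor, by 1.97 ± 0.52 (adjusted p = 0.0177). Vegfb had means of 2.25 in SuHx, 1.14 in hypoxia and 2.44 in normal animals. Fgfr1 was -4.68 in hypoxia animal 6, and its change was 1.21 without that animal and 0.78 with the 2-of-6 filter (adjusted p = 0.716). Notch4, an endothelial Notch receptor, rose by 1.05 ± 0.29 and lost its call without SuHx animal 5. Vegfa, whose receptor SU5416 blocks, was 0.83 to 2.19 (median 1.85) in SuHx animals, against -0.99 to 2.09 (median 0.94) in hypoxia animals, a difference of 0.93 ± 0.44 (adjusted p = 0.183). Eng, the endothelial co-receptor endoglin, was 2.16 to 3.77 (median 3.06) in SuHx animals, against -1.66, 1.21, 1.15, 2.15 and -0.56 in 5 hypoxia animals (change 2.56 ± 0.48, adjusted p = 0.00186). In 5 normal animals Eng was 2.76 ± 0.38. Cldn5, a tight junction protein, rose by 1.55 ± 0.32 and Aqp1, a water channel, by 1.14 ± 0.29, while Fabp4 of capillary endothelium and fat fell by 0.77 (adjusted p = 0.0207). Aqp1 had means of 1.77 in SuHx, 0.63 in hypoxia and 2.21 in normal animals. The change of Fabp4 was -0.06 with arrays scaled to equal spread (adjusted p = 0.912) and -0.45 with first arrays (adjusted p = 0.362). These 4 genes were the calls among 18 endothelial markers. Of the markers 16.7% rose and 5.6% fell, against 9.46% and 1.78% of all tested genes. The summed level of the 11 markers with a value in every animal, as a mean log2 ratio, was 3.28 to 3.79 in SuHx animals, against 2.58 to 3.73 in hypoxia and 3.06 to 3.89 in normal animals. In a piece of tissue, fewer cells of a type and less RNA per cell cannot be told apart.

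Matrix genes rose in number. Of 26 collagens, laminins and structural matrix genes, 10 rose (38.5%) and none fell, with a median change of 0.95, and 7 rose without the 2 arrays. Of 25 matricellular and matrix remodelling genes 8 rose (32.0%) and 1 fell, and 8 of these 9 were called without those arrays. Thbs4, thrombospondin 4, was -0.51 to 4.02 (median 2.29) in SuHx animals, against -2.60 to 0.35 (median -0.74) in hypoxia and -1.26 ± 0.71 in normal animals (change 3.19 ± 0.59, adjusted p = 0.00142). SuHx animal 3, at -0.51, was the only one among the hypoxia animals. Postn, periostin, made by activated fibroblasts, was 1.27, -0.10, 1.79, 0.10 and 2.15 in 5 SuHx animals, against -3.62, -2.46, -2.72 and -2.69 in 4 hypoxia animals and -2.74 ± 0.89 in normal animals (change 3.92 ± 0.71, adjusted p = 0.00166). It could not be tested without the 2 arrays, because too few hypoxia animals then had a value, and was 2.42 with the 2-of-6 filter (adjusted p = 0.0939). Ltbp2, a microfibril protein, was -2.10 to 1.68 (median 0.00) in SuHx animals, against -6.22, -4.81, -1.71, -2.56 and -2.99 in 5 hypoxia animals (change 3.62 ± 0.69, adjusted p = 0.00204), with SuHx animal 3 at -2.10 below hypoxia animal 3 at -1.71. Ccn2, connective tissue growth factor, was -0.32 to 1.54 (median 0.64) in SuHx animals, against -2.20 to -0.14 (median -0.92) in hypoxia and -1.69 ± 0.53 in normal animals (change 1.89 ± 0.38, adjusted p = 0.00284). The groups overlapped narrowly, SuHx animal 3 at -0.32 lying under hypoxia animal 6 at -0.14.

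In Thbs4, Ltbp2, Ccn2 and Col5a1 the lowest SuHx value came from animal 3, and so did that of Fbn1. Col5a1, a collagen that nucleates fibrils, was -1.61 to 0.13 (median -0.29) in SuHx animals, against -3.06 to -1.70 (median -2.25) in hypoxia animals (change 1.78 ± 0.32, adjusted p = 0.00102). Fbn1, fibrillin 1, rose by 1.57 ± 0.35 (adjusted p = 0.00559), Col4a1 of basement membranes by 0.83 ± 0.19 (adjusted p = 0.00603, and 0.39 with the probe with the most values, adjusted p = 0.322), and Col8a1, a collagen of injured vessels, by 2.31 ± 0.54 (adjusted p = 0.0084). Col1a1, the main fibrillar collagen, was -2.21 to 0.03 (median -0.56) in SuHx animals, against -1.60 to -0.87 (median -1.37) in hypoxia animals, a difference of 0.51 ± 0.33 (adjusted p = 0.357). Its partner Col1a2 rose by 0.88 ± 0.25 and was called in 8 of the 12 fits without 1 animal. Fbln1, fibulin 1, rose by 1.32 ± 0.31 but by 0.71 without the 2 arrays (adjusted p = 0.126). The one matrix gene to fall was Ltbp1, a latent TGF-beta binding protein, by 0.94 (adjusted p = 0.0182).

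Ligands, a co-receptor and feedback inhibitors of the TGF-beta and BMP pathways rose, 5 of 27 tested members (18.5%, against 9.46% of all tested genes). Of these 5, 4 were called without the 2 arrays. Smad7, an inhibitor that TGF-beta itself induces, was 0.33 to 1.58 (median 1.12) in SuHx animals, against -1.21 to 0.06 (median -0.68) in hypoxia and 0.60 ± 0.61 in normal animals (change 1.70 ± 0.28, adjusted p = 0.000632). Smad6, its counterpart in BMP signalling, rose by 1.75 ± 0.43 (adjusted p = 0.012). Smad6 had means of 1.0 in SuHx, -0.75 in hypoxia and 0.89 in normal animals. Tgfb3 was 0.57 to 1.66 (median 1.14) in SuHx animals, against -1.41 to 0.24 (median -0.19) in hypoxia and 0.84 ± 0.32 in normal animals (change 1.40 ± 0.26, adjusted p = 0.00149). Tgfb2 rose by 1.63 ± 0.49 and was called in 7 of the 12 fits without 1 animal and not without the 2 arrays (1.46, adjusted p = 0.0608) or with the 2-of-6 filter (0.81, adjusted p = 0.276). Tgfb2 had means of 1.2 in SuHx, -0.43 in hypoxia and -0.38 in normal animals. Of 14 fibroblast markers 3 rose (21.4%, against 9.46% of all tested genes), namely Vim (1.22 ± 0.25), Fap (2.81 ± 0.71) and Col1a2. Vim had means of -1.03 in SuHx, -2.24 in hypoxia and -1.11 in normal animals, and Fap of 2.11, -0.7 and 1.18. Fap and Col1a2 are also members of the matrix lists and were counted there. The mean log2 ratio of the 11 fibroblast markers with a value in every animal was 0.34 to 1.36 in SuHx animals, against -0.04 to 0.90 in hypoxia and 0.01 to 0.99 in normal animals. The part of fibroblast number in the matrix result was not tested.

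Of the 3 chains of the complement component C1q, which tissue macrophages make, 2 rose. C1qc was 2.98 to 6.14 (median 3.43) in SuHx animals, against 0.15 to 2.03 (median 1.28) in hypoxia and 2.61 ± 0.46 in normal animals (change 2.60 ± 0.43, adjusted p = 0.000578). C1qb was not called (difference 0.37, adjusted p = 0.446). C1qa rose by 1.35 ± 0.35 (adjusted p = 0.0167) but by 0.99 without the 2 arrays (adjusted p = 0.0569). SuHx animal 6 stood apart in both, at 6.14 and 7.17. Lyz2, a lysozyme of myeloid cells, rose by 0.73 ± 0.23 and was called in 5 of the 12 fits without 1 animal and not without the 2 arrays (0.55, adjusted p = 0.0917). These were 3 of 16 tested markers (18.8%, against 9.46% of all tested genes), of which 1 was called without the 2 arrays. The mean log2 ratio of all 16 was 0.67 to 1.62 in SuHx animals, against -0.01 to 0.53 in hypoxia and 0.40 to 0.83 in normal animals, with no overlap between the loaded groups. Such separation was not particular to these markers. List means of natriuretic and stress, adrenergic, channel, biogenesis, glycolytic, hypoxia-inducible factor and aryl hydrocarbon receptor genes did not overlap either.

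The deepest falls included a lymphocyte gene. Gzmc, granzyme C, a protease of killer lymphocytes, was -5.07 to -0.77 (median -2.43) in SuHx animals, against -0.49 to 2.91 (median 1.62) in hypoxia and 1.51 ± 0.91 in normal animals (change -4.12 ± 0.78, adjusted p = 0.00197). The loaded groups did not overlap. Zap70, a T cell receptor kinase, fell by 0.93 (adjusted p = 0.0418) and was called in 4 of the 12 fits without 1 animal. None of the other 10 tested lymphocyte and granulocyte markers was called, and 2 of the markers had a value in every animal. Il15, a cytokine that sustains killer lymphocytes, was -0.93 to 0.40 (median 0.06) in SuHx animals, against 0.68 to 2.02 (median 1.18) in hypoxia and 1.09 ± 0.38 in normal animals (change -1.30 ± 0.31, adjusted p = 0.00904). Ccl11, eotaxin, which draws eosinophils, was -1.40, -1.03, -1.26 and -2.41 in 4 SuHx animals, against 0.18 to 1.53 (median 1.03) in hypoxia animals (change -2.43 ± 0.55, adjusted p = 0.00756). In normal animals Ccl11 was -1.0 ± 1.09. Of 31 tested chemokines, cytokines and receptors 3 rose (9.7%, near the 9.46% of all tested genes) and 2 fell (6.5%, against 1.78%). Il15 was on that list and Ccl11 was not. Tnfrsf12a, the receptor of the cytokine TWEAK, rose by 1.73 ± 0.41 (adjusted p = 0.0084). Cxcr4, the receptor of Cxcl12, rose by 1.43 ± 0.39 and lost its call without SuHx animal 6 and without the 2 arrays (1.19, adjusted p = 0.0514). The remaining calls of that list were Il6st, which rose, and Cxcl1, which fell.

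**Figure D4:**
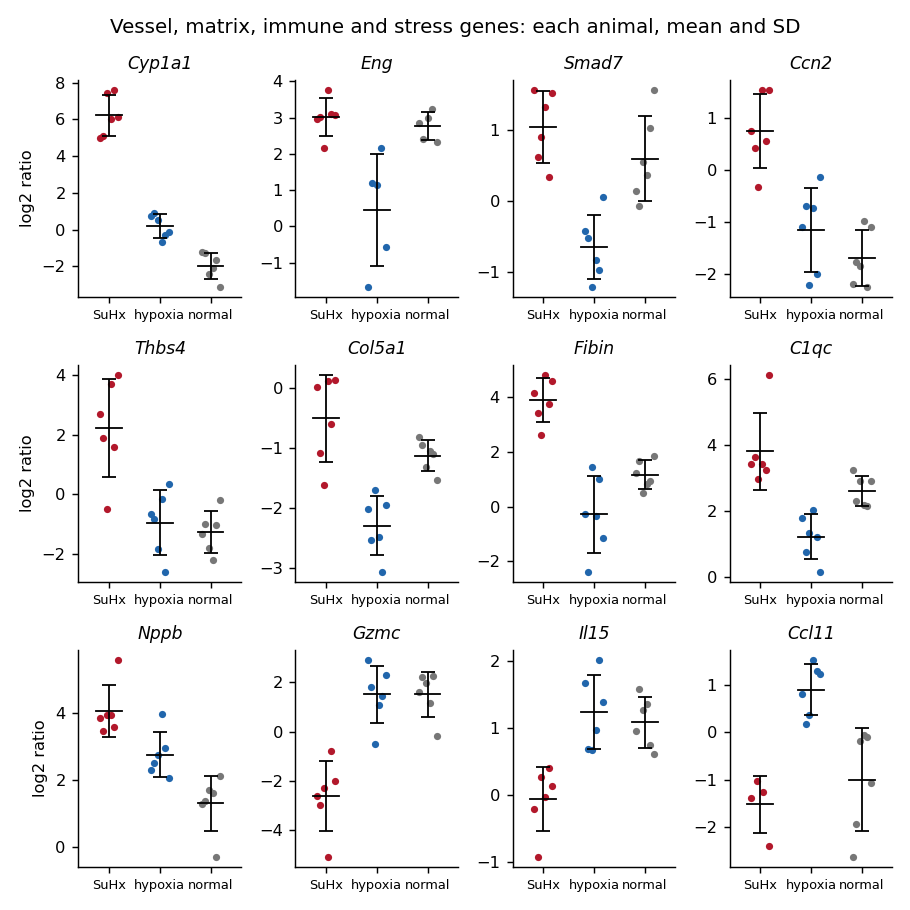
Log2 ratio over the reference RNA (vertical axes, scaled per gene) of 12 vessel, matrix, immune and stress genes in each SuHx, hypoxia and normal animal, with mean and SD as black bars. Cyp1a1 separates the groups most, and Gzmc, Il15 and Ccl11 are the 3 genes that are lower in SuHx. SuHx animal 6 is the high point of C1qc (6.14) and Nppb (5.58).

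Most other genes with large changes lay outside the lists. Fibin, a secreted factor named for the fin bud of zebrafish, was 2.62 to 4.81 (median 3.94) in SuHx animals, against -2.38 to 1.44 (median -0.32) in hypoxia and 1.16 ± 0.52 in normal animals (change 4.17 ± 0.51, adjusted p = 1.78e-05), with no overlap. Fstl3, a secreted inhibitor of activin, rose by 4.36 ± 1.09 (adjusted p = 0.0125), and by 2.83 without hypoxia animal 5, which stood at -12.21. Kif5a, a neuronal kinesin, rose by 4.43 ± 0.91 (adjusted p = 0.00431). Man1c1, a mannosidase of the Golgi, rose by 4.32 ± 1.14, but its change was 0.67 with the 2-of-6 filter (adjusted p = 0.769). Tmem69 rose by 4.35 ± 1.18 and Sh3bgr by 3.92 ± 0.92. In each of these 3 genes 4 hypoxia animals had a value, and Tmem69 could not be tested without the 2 arrays. Castor2, a regulator of mTOR signalling, was -2.48, -0.38, 0.26 and -4.54 in 4 SuHx animals, against 2.74, 1.31, 5.20, 2.0 and 0.81 in 5 hypoxia animals (change -4.20 ± 1.03, adjusted p = 0.0152). Pard6b, a cell polarity protein, fell by 2.96 (adjusted p = 0.0073), and Tubgcp6 of the gamma-tubulin complex by 2.45 (adjusted p = 0.00508). Sall1, a transcription factor of kidney development, fell by 2.66 and lost its call without SuHx animal 2 or hypoxia animal 5 or 6. Sall1 had means of -2.76 in SuHx, -0.1 in hypoxia and -2.83 in normal animals. Them5, a mitochondrial thioesterase in mice, fell by 2.69, could not be tested without the 2 arrays and was -1.32 with the 2-of-6 filter (adjusted p = 0.247). Olig2, a transcription factor of glia, fell by 4.16 and lost its call without hypoxia animal 3 or 4. It was 1.11, -0.62, 1.13 and -5.87 in 4 SuHx animals, and no fit that kept Olig2 left out any of these. Sult2a2, a sulfotransferase, fell by 2.96 and was called in 3 of the 4 fits without 1 animal that kept it. Myh1, a skeletal muscle myosin and the only call among 9 skeletal muscle markers, fell by 2.38 and was called in 6 of the 12 fits without 1 animal.

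Of 26 heat shock proteins and chaperones 6 rose (23.1%) and none fell. Hspa4 was 0.81 to 1.44 (median 1.23) in SuHx animals, against -0.34 to 0.35 (median 0.06) in hypoxia and 1.04 ± 0.19 in normal animals (change 1.18 ± 0.17, adjusted p = 0.000145). Hsp90aa1, the inducible HSP90, was -0.51 to 0.29 (median 0.01) in SuHx animals, against -1.12 to -0.46 (median -0.88) in hypoxia and -1.05 ± 0.11 in normal animals (change 0.81 ± 0.16, adjusted p = 0.00216), while Hsp90ab1 and the mitochondrial Hspd1 rose by 0.82 ± 0.16 and 1.15 ± 0.23. Hsp90ab1 was 0.16 with the probe with the most values (adjusted p = 0.623). Ddit3, a transcription factor of the unfolded protein response, rose by 0.71 ± 0.19, and Hspa8 by 0.85 ± 0.23, which was lost without the 2 arrays (0.63, adjusted p = 0.0918) and with the probe with the most values (0.53, adjusted p = 0.126). Of 51 ribosomal protein genes 1 rose (2.0%) and 3 fell (5.9%), with a median change of -0.04. Rps25 fell by 0.69 (adjusted p = 0.0117) with no overlap, and had means of -1.23 in SuHx, -0.54 in hypoxia and -1.28 in normal animals. Rps29 fell by 0.81 and Rpl18 rose by 0.63 ± 0.17, and neither was called without the 2 arrays (-0.67, adjusted p = 0.0776, and 0.47, adjusted p = 0.0817). After quantile normalisation Rpl18 was 0.37 (adjusted p = 0.151). Rps29 was also called in only 8 of the 12 fits without 1 animal. Rps24 fell by 0.73, was called in 2 of the 12 fits without 1 animal, and its 3 probes gave -2.28 to 0.24. None of 28 splicing factors was called by limma, and 2 had an unadjusted p under 0.05. Of 33 proteasome subunits 3 rose (9.1%, near the 9.46% of all tested genes), and 5 rose and 2 fell without the 2 arrays.

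Among the clock genes 3 rose and 1 fell. Bmal1, the activator of the clock, was 0.30 to 1.38 (median 0.80) in SuHx animals, against -2.17 to 0.63 (median -0.38) in hypoxia and -1.33 ± 0.49 in normal animals (change 1.43 ± 0.36, adjusted p = 0.0129). Dbp, an output gene that peaks at another phase, was -0.85 to 0.98 (median 0.33) in SuHx animals, against 0.42 to 1.89 (median 1.10) in hypoxia and 1.72 ± 0.32 in normal animals, and fell by 0.95 (adjusted p = 0.0458), called in 6 of the 12 fits without 1 animal. Per1 rose by 1.55 ± 0.40 (adjusted p = 0.0151), but its change was 0.69 with either other filter (adjusted p = 0.477 and 0.434). Nr1d1, a repressor of Bmal1, rose by 1.41 ± 0.42 (adjusted p = 0.0336), called in 7 of these fits. They were the 4 calls among 13 clock genes (30.8%, against 11.2% of all tested genes). The sources used here do not give the hour at which the hearts were taken, and its part was not tested.

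Growth and early response genes gave a few calls each. Gsk3b, a kinase that restrains growth, rose by 1.14 ± 0.21 (adjusted p = 0.00135), Mtor by 1.07 ± 0.30, lost without hypoxia animal 5 and without the hypoxia animals numbered over 100 in the labels (0.66, adjusted p = 0.126), and Fbxo32, a muscle ubiquitin ligase, by 1.73 ± 0.53, called in 5 of the 12 fits without 1 animal. They made up 3 of 24 members (12.5%), near the 9.46% of all tested genes. Of 26 early response genes 4 rose (15.4%). Klf2, a flow-responsive factor of endothelium, was 1.12 to 1.89 (median 1.63) in SuHx animals, against -0.92 to 0.76 (median -0.01) in hypoxia and 1.11 ± 0.54 in normal animals (change 1.61 ± 0.28, adjusted p = 0.000926), and Nfkb1 and Atf3 rose by 0.90 ± 0.17 and 0.95 ± 0.23. The fourth early response call, Dusp1 (0.99 ± 0.27), was lost without the 2 arrays (0.51, adjusted p = 0.368) and after quantile normalisation (0.55, adjusted p = 0.171). Among 32 cell cycle genes, 2 rose (6.2%) and 1 fell (3.1%), against 9.46% and 1.78% of all tested genes. Ccnd2, cyclin D2, was 0.86 to 2.0 (median 1.64) in SuHx animals, against -0.40 to 0.77 (median 0.16) in hypoxia and 0.23 ± 0.25 in normal animals (change 1.32 ± 0.24, adjusted p = 0.00109). Cdkn1a, a cell cycle inhibitor, rose by 1.11 ± 0.34 and was called in 4 of the 12 fits without 1 animal. The one fall, Mcm3 of the replication helicase, was -1.64 with its 2 probes at -3.69 and 0.03, and was 0.05 without the 2 arrays (adjusted p = 0.944). Keap1, the sensor of oxidative stress, was the single call among 29 antioxidant genes (1.35 ± 0.29, adjusted p = 0.005).

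The markers of heart muscle overlapped between the groups. Of 14 cardiomyocyte markers, Ryr2 alone was called, and the mean log2 ratio of the 13 with a value in every animal was 4.36 to 5.23 in SuHx animals, against 3.91 to 4.93 in hypoxia and 3.89 to 4.88 in normal animals. These ratios lay above the reference in every animal, as the tissue label has it. Of 10 atrial markers 3 rose: Dkk3 (1.97 ± 0.37), Myl7 (1.78 ± 0.40, 1.26 without the 2 arrays, adjusted p = 0.0615, and 0.77 with the probe with the most values, adjusted p = 0.32) and Gja5. None of 11 smooth muscle and pericyte, 10 erythroid or 6 mesothelial markers was called by limma, and 3, 2 and 0 of them had an unadjusted p under 0.05. Of 8 adipocyte markers Fabp4 and Lep fell, Lep by 1.20, and Lep was called in 7 of the 12 fits without 1 animal and not without the 2 arrays (-1.20, adjusted p = 0.0577).

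**Figure D5:**
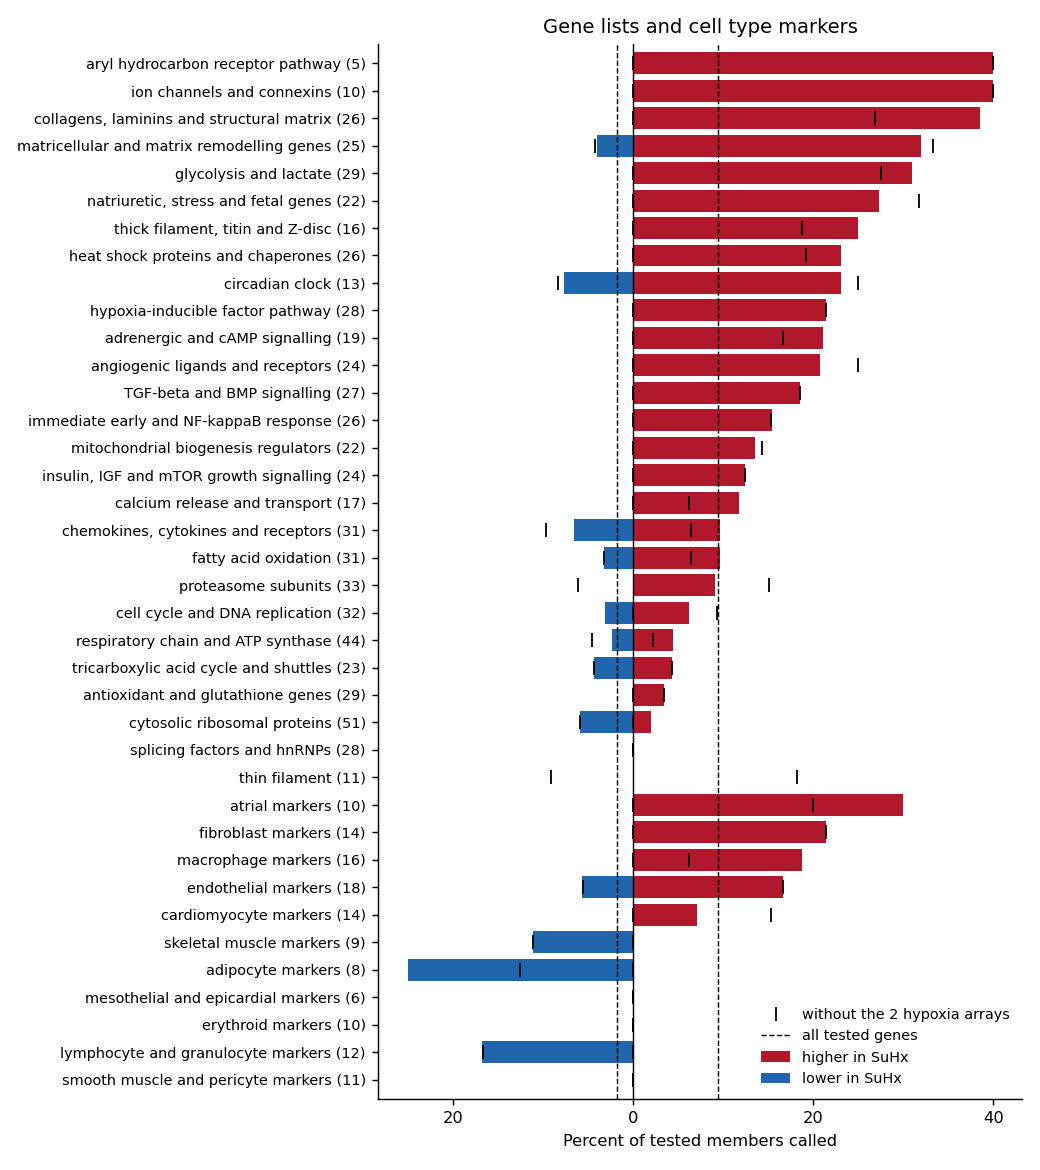
Percentage of the tested members of each gene list (number in brackets) that were called higher (right of 0) or lower (left of 0) in SuHx than in hypoxia animals, with black ticks for the fit without the 2 hypoxia arrays and dashed lines at 9.46% and 1.78%, the shares of all tested genes. Channels and connexins and the aryl hydrocarbon receptor list reach 40% higher, structural matrix genes 38.5%, matricellular genes 32.0% and glycolysis 31.0%. Splicing factors, thin filament genes and smooth muscle, erythroid and mesothelial markers have no call.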

How the data were processed

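RNA of whole snap-frozen right ventricles was hybridised in Cy5 against a common reference in Cy3 on 2-colour arrays. Per the series design text, the authors read the arrays with GenePix Pro 5.0 and normalised each by lowess in marray. The deposited tables hold 1 log2 ratio per spot. A table heading names log10, but its values reach 14.01 and -13.64, so that they were read as log2. For background correction, spot filters and the reason why 34.85% of cells are empty, the sources used here say nothing. Values were used as deposited, with no further scaling.

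Spots were averaged to probes, arrays to animals and probes to genes, with gene names from the platform annotation. Before the last step, only probes with values in at least 4 of 6 animals of every group were kept. A gene was tested when it had such a probe. All 4 groups, also SuHx animals on carvedilol (15 mg/kg), entered 1 limma fit (version 3.58.1, R 4.3.3; 20 residual degrees of freedom). Of 9775 genes, 8093 matched a RefSeq promoter. Replicate numbers did not pair the animals (correlations of deviations -0.069 to 0.054). The number of arrays, 1 to 5 per animal, limits the precision.

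The members, gene lists and tests were chosen with earlier results of these data known. Named genes are a panel of 20 heart genes, the 10 largest rises and 10 largest falls among called genes whose SuHx and hypoxia animals did not overlap, and up to 4 members of each list with the lowest adjusted p. Other called list members are named where they complete a count. Lists were described by counts and medians, with no set test. The alternatives were other normalisations, filters, probe rules, samples in the fit, weights, and leaving out arrays or animals.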

Additional observations from a re-analysis of the deposited data

Results flagged for a closer look

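In groups of 4 to 10 animals, a single animal was taken as standing apart when its gap to the nearest other, over the range of the group, passed Dixon's critical value. This was so in 23 of 314 groups of values examined, and chance alone marks about 1 in 20.

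SuHx animal 6 was high in 3 of them. It stood at 7.17 for C1qa, with the other SuHx animals at 5.60 to 5.87, at 6.14 for C1qc, with the others at 2.98 to 3.63, and at 5.58 for Nppb, with the others at 3.47 to 3.94. Among the other SuHx animals, animal 3 was at 1.46 for Enah and at 6.25 for Pygm, animal 4 at 0.52 for Myh6 and at -0.68 for Hspd1, animal 5 at 2.99 for Decr1 and at -0.14 for Il6st, and animal 2 at -2.42 for Cyp1b1.

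Hypoxia animal 3, which owns 1 of the 2 arrays that stood apart, was low for Angpt2 (-2.18), Aplnr (-3.08), Pfkp (-3.05) and Tgfb3 (-1.41). Hypoxia animal 4, which owns the other, was low for Got1 (-2.0) and Tnfrsf12a (-2.96). All 6 of these genes were called without the 2 arrays, with changes of 1.03, 1.98, 1.32, 1.08, 1.98 and 1.48 in the order named.

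Hypoxia animal 6 was low for Col8a1 (-4.68), Fgfr1 (-4.68), Polg (-4.71), Prkar1a (-0.69) and Ddit3 (-0.08). Hypoxia animal 5 was low for Fstl3, at -12.21 with the other animals at -3.96 to -1.37, and for Loxl1, at -2.35. What sets these animals apart was not tested.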

How the results depend on the processing

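The number of called genes, 1099, ran from 801 to 1198 in the fits without 1 animal, with 685 to 1005 higher, 116 to 215 lower and a median change of 0.24 to 0.28. It was 717 (96 lower) with values in 2 of 6 animals of every group, and 578 (492 higher, 86 lower) with only the SuHx and hypoxia animals fitted. Against 174 lower genes, 271 were lower with arrays scaled to equal spread, 115 with the first array of each animal, 290 without the 2 hypoxia arrays and 362 without them and quantile normalised. The median change of all genes, 0.26, was 0.15 after quantile normalisation, 0.21 with centred arrays, 0.19 with equal spread, 0.19 with the 2-of-6 filter, 0.21 with probes measured on every array, 0.42 with first arrays, 0.19 without the 2 arrays and 0.1 with both. Removing probe offsets and combining the 2 arrays with quantile normalisation were chosen after seeing the data. With the replicate number as a block, 1018 genes were called (858 higher, 160 lower). Numbers that do not pair the animals make this a change of model only.

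The difference in spots with a value, 2106, was 3121 with first arrays (exact permutation p = 0.158), 817 without the 2 arrays (exact permutation p = 0.154) and 1451 to 2580 without 1 animal. Of the 146 called genes that are named or in a list, 97 were called in all 12 fits without 1 animal and 122 without the 2 arrays, while 4 could not be tested there. With only the SuHx and hypoxia animals fitted 85 of 146 were called, with the 2-of-6 filter 97 of 146, with first arrays 92 of 124 that had a value, and under the other settings that keep all animals or drop 2 or more the share ran from 116 of 142 to 142 of 146. Fitting only these 2 groups ended, among others, the calls of Angpt2, Bmal1, Castor2, Col8a1, Cyp1b1, Ddit3, Ddit4, Egln2, Enah, Eno1, Fabp4, Fgfr1, Fstl3, Gpi, Keap1, Kif5a, Ltbp1, Ndufa2, Per1, Pfkp, Rps25 and Sh3bgr. The 2-of-6 filter ended, among others, those of Bmal1, Ddit3, Enah, Hsp90aa1, Ltbp1, Pard6b and Pgam1, and first arrays, among others, those of Adrb1, Col5a1, Col8a1, Cyp1b1, Ddit4, Eno1, Il15 and Ndufa2. Among others, the probe with the most values ended those of Aplnr, Aqp1, Prkar1a, Rbm39 and Rps25, weights per animal those of Ccl11 and Ddit3, and leaving out the hypoxia animals numbered over 100 those of Cyp1b1, Fabp4, Ndufa2 and Smad6. Among genes called but moved by over 1.5 times were Hk1 (1.81), Fibin (2.5) and Kif5a (2.74) with the 2-of-6 filter, and Cldn5 (2.37), Dkk3 (3.04), Egln2 (1.6), Tnfrsf12a (3.02) and Vegfb (1.68) with first arrays. Sign turned for Mcm3 (0.03 with the probe with most values, 0.05 without the 2 arrays, and -1.87 to 0.05 without 1 animal), Rps24 (0.24 with that probe, 0.05 with probes measured on every array) and Il6st (-0.0046 with the latter probes). The probes of these genes disagree. The other causes were not tested.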

Other observations

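Several of the genes with the lowest adjusted p-values lay outside every list, and those named here were chosen after their values were seen. Spg7, a protease of the inner mitochondrial membrane, had the lowest adjusted p of all tested genes: it was 0.81 to 1.30 (median 0.93) in SuHx animals, against -2.18, -2.32, -2.69, -1.75 and -1.64 in 5 hypoxia animals and 0.70 ± 0.49 in normal animals (change 3.09 ± 0.25, limma adjusted p = 2.12e-07). Dysf and Trim72, both known from the repair of muscle membranes, rose with no overlap. Dysf, dysferlin, was 2.83 to 3.16 (median 3.10) in SuHx animals, against 0.78, 0.59, 1.80, -0.04 and 0.90 in 5 hypoxia animals (change 2.23 ± 0.24, adjusted p = 6.16e-06), and Trim72, which codes for MG53, was 5.24 to 6.35 (median 5.44) in SuHx animals, against 0.85, 4.01, 1.08, 1.42 and 2.46 in 5 hypoxia animals (change 3.64 ± 0.48, adjusted p = 6.18e-05). Normal animals were at 2.91 ± 0.2 for Dysf and 4.53 ± 0.56 for Trim72. Plat, tissue plasminogen activator, rose by 2.90 ± 0.35, Mvp, the major vault protein, by 2.24 ± 0.23, Gpc1, a cell surface proteoglycan, by 2.19 ± 0.25, and Tns1, an adaptor of focal adhesions, by 1.60 ± 0.19. All of these were called without the 2 arrays and in each of the 12 fits without 1 animal. Under other settings Dysf was 0.91 and not called with either other filter on missing values (adjusted p = 0.221 and 0.179), and Gpc1 was 0.93 with the probe with the most values.

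Among the falls with the lowest adjusted p-values were Clk1 (-1.84 ± 0.32) and Clk4 (-1.51 ± 0.28), kinases of splicing factors, Rbm39 (-1.23 ± 0.22), a splicing regulator, and Chrac1 (-1.31 ± 0.18), a subunit of a chromatin remodeller. Clk1 was -2.96 to -0.69 (median -1.45) in SuHx animals, against -0.54 to 0.63 (median 0.41) in hypoxia and -0.85 ± 0.46 in normal animals. None of these genes overlapped between the loaded groups. With values asked for in 2 of 6 animals of every group, Chrac1 (-1.32, adjusted p = 0.0677) and Rbm39 (-0.94, adjusted p = 0.128) were not called.

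Presence of a value was not tested. The genes Pabpn1l, Rdh10 and Wipi1 had a value in 6 of 6 SuHx animals and in 0 or 1 hypoxia animals, and Fignl1, Smim23, Trhde, Trim59 and Upp2 had one in 6 of 6 hypoxia animals and in 0 or 1 SuHx animals.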
